A study of Bos taurus with 12 samples.

Results

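The insulin-like growth factor (IGF) binding proteins 1 to 7, the ligand IGF1 and its receptor IGF1R were followed in cattle embryos before and after the conceptus starts to elongate. Every probe set annotated with exactly 1 of these 9 gene symbols was taken, which gave 14 of the 24016 probe sets tested and 9 of the 9155 genes measured. IGF1 had 4 probe sets, IGF1R and IGFBP3 had 2 each, and the other 6 genes had 1 each. Of these 14, 4 probe sets were above the array background: both of IGFBP3, that of IGFBP6 and that of IGFBP7. The other 10, which cover IGF1, IGF1R, IGFBP1, IGFBP2, IGFBP4 and IGFBP5, lay at or below background on all 12 arrays. Some genes held 1 recurring value of their own above background, so a value above it does not by itself show that a transcript was detected.

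RNA came from 4 groups of 3 pools each. Day 13 in vitro conceptuses were made by in vitro fertilisation and Day 13 in vivo conceptuses came from superovulated donors, and both had been transferred to recipient heifers as blastocysts, 10 per recipient, and collected in pools of 5. The blastocysts frozen without transfer, Day 7 in vitro and Day 7 in vivo, were pooled by 25. "In vitro" therefore names the origin of a Day 13 conceptus, since all Day 13 conceptuses had grown in a uterus since transfer. No breed, sex or treatment is given in the labels. Each Affymetrix bovine array received material from 75 ng of total RNA after 2 cycles of amplification. Pools are separate samples, so each p-value below measures the spread between pools, and 3 arrays per group limit the precision.

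IGF1 and IGF2 are secreted growth factors that signal through IGF1R, a tyrosine kinase receptor at the cell surface. IGFBP1 to IGFBP6 bind both ligands tightly, extend their life in body fluids and control how much reaches the receptor, while IGFBP7 binds them weakly and also binds extracellular matrix. In ruminants the uterus releases IGFs and binding proteins into the fluid around the conceptus, and IGFBP1 is known there as an endometrial gene of early pregnancy.

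Values are deposited log2 intensities, on which a step of 1 is a doubling of signal. They compare one probe set between arrays and say nothing of one gene's level against another's. Background was set at 3.39, from negative control probe sets, and the lowest value in the table was 2.23. Between 41.3% and 42.0% of probe sets exceeded background on each array, and the correlation between replicates over all probe sets was 0.963 to 0.991. Some arrays stood apart in measures of the array itself. The mean of the poly-A control RNAs, which are added before labelling, was 9.27, 10.50 and 12.99 in Day 13 in vitro replicates 1, 2 and 3, against 14.25 to 14.57 in the Day 13 in vivo arrays. In Day 7 arrays it was 13.34 to 14.60 for in vitro and 14.12 to 14.96 for in vivo pools. Hybridization controls were also lowest in Day 13 in vitro replicates 1 and 2, 10.38 and 10.84 against 11.84 or above elsewhere. The GAPDH 3′ minus 5′ difference, a measure of RNA length, was lowest in the same arrays (2.53 and 2.61) and highest in the Day 7 in vivo arrays (5.58 to 5.65), with 2.85 to 4.62 on the others. All 9 trophoblast markers measured were above background on at least 1 array of each Day 13 group. In each Day 7 group 7 of 9 were, by the same measure. Of markers of maternal tissue, 1 of 8 endometrial genes (MSX1) exceeded background, as did 1 of 8 blood genes (HBB, on all Day 7 arrays and, at 3.42, on Day 13 in vivo replicate 1) and 1 of 7 cumulus genes (NR5A1), and the endometrial genes PGR, ESR1, OXTR and SERPINA14 were at background. In such pools, fewer cells of a type and less RNA per cell cannot be told apart.

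**Figure D1:**
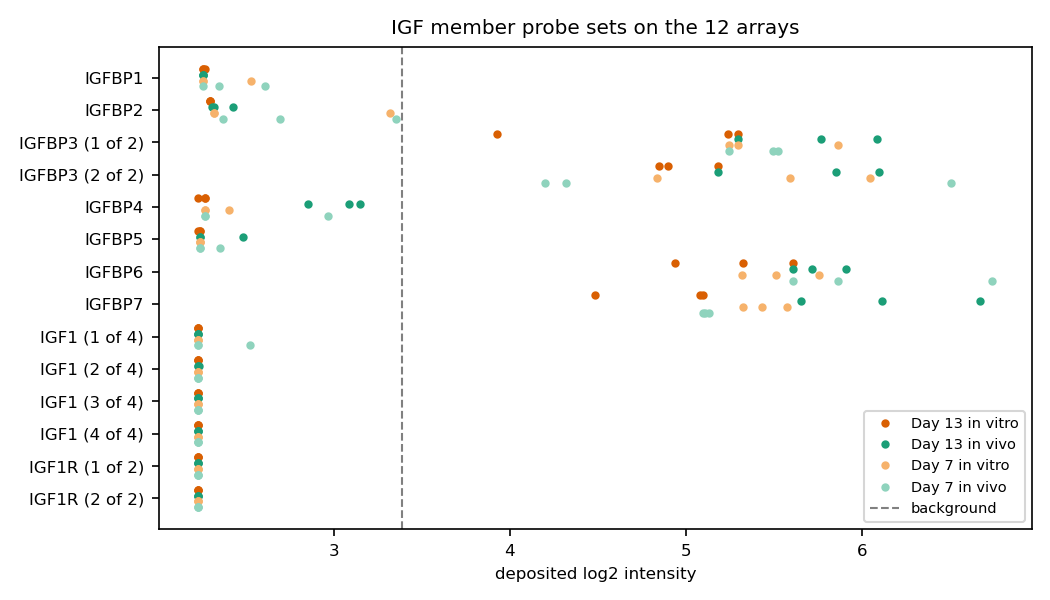
Deposited log2 intensity (x axis) of the 14 probe sets of the IGF genes (y axis), with each point 1 array, coloured by group, and the dashed line at the background of 3.39. All arrays of IGFBP3, IGFBP6 and IGFBP7 lie to the right of the line, and all arrays of the other 6 genes lie to its left.

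The receptor and its ligand gave no signal above background. Both IGF1R probe sets stood at the table's lowest value, 2.23, on all 12 arrays. Of the 4 IGF1 probe sets, 2 stood at 2.23 on all 12 arrays and 2 on 11. The highest IGF1 value was 2.52, in Day 7 in vivo replicate 1, still below background. A value at background bounds only the signal of the probe set, from above, and no fold is given for these genes. Whether these probe sets respond to their transcripts in such samples was not tested, so a low transcript level is not shown.

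Of the binding proteins at background, IGFBP1 lay between 2.26 and 2.61 over the 12 arrays and IGFBP5, which binds matrix, between 2.23 and 2.48. IGFBP2, a binding protein that also binds integrins, reached 3.32 in Day 7 in vitro replicate 1 and 3.35 in Day 7 in vivo replicate 1, both just under the background. IGFBP4, which holds IGFs until the protease PAPPA cleaves it, had values of 2.23, 2.27 and 2.27 in Day 13 in vitro arrays and 2.86, 3.09 and 3.15 in Day 13 in vivo arrays. Its Day 7 values were 2.27, 2.27 and 2.41 in vitro and 2.97, 2.27 and 2.27 in vivo. The Day 13 in vivo arrays were thus above every Day 13 in vitro array, yet both groups were below background. IGFBP2 groups also did not overlap for the days in vitro and for the origins at Day 13, again below background. The adjusted p of IGFBP4 was 0.0820 for Day 13 in vitro against in vivo and 0.192 for Day 13 against Day 7 in vivo (limma). Without Day 7 in vivo replicate 1 the limma adjusted p was 0.00665 for the first, 0.00403 for the second and 0.0357 for the difference between the day effects. The first comparison does not hold that array, and its difference stayed at -0.77. There the spread estimated over all groups changed, and not the IGFBP4 difference. IGFBP2 and IGFBP5, and likewise IGFBP3 and IGFBP1, are neighbours in the RefSeq annotation of ARS-UCD2.0 with 0 protein-coding genes between them. IGFBP3 was thus above background beside a neighbour that was not.

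No member passed the test in any of 5 comparisons. Probe sets were called at an adjusted p below 0.05 over all 24016, with limma and Benjamini-Hochberg adjustment. Between Day 13 and Day 7 in vivo, 0 of 14 member probe sets were called, where 3.79% of all probe sets were. Unadjusted, 2 (IGFBP4 and IGFBP7) had a p below 0.05, as did 14.0% of all. Between Day 13 and Day 7 in vitro it was 0 of 14, where 7.51% of all were called, with 0 below 0.05 unadjusted (19.2% of all). For in vitro against in vivo at Day 7 it was 0 of 14, where 0.208% of all were called, with 0 below 0.05 unadjusted (6.67% of all). At Day 13, in vitro against in vivo called 0 of 14, where 1.20% of all were called, and IGFBP3, IGFBP4 and IGFBP7 made 3 below 0.05 unadjusted (16.0% of all). The difference between the day effects called 0 of 14, where 0.400% of all were called, with IGFBP4 and IGFBP7, 2 in number, below 0.05 unadjusted (10.1% of all). Among the 10591 probe sets above background on at least 3 arrays, the called shares were 8.23%, 16.6%, 0.378%, 2.57% and 0.831% in the same order. The median difference of the 14 was -0.031 for the days in vitro, -0.028 for the origins at Day 13 and 0 in the other 3, against 0 over all probe sets in each.

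Among the members above background, IGFBP7 was the one whose groups separated. This secreted protein, also called angiomodulin, is found in basement membranes and vessel walls. Its values were 4.48, 5.08 and 5.10 in Day 13 in vitro arrays and 5.65, 6.11 and 6.67 in Day 13 in vivo arrays. In Day 7 arrays they were 5.58, 5.32 and 5.43 in vitro and 5.11, 5.10 and 5.13 in vivo. Day 13 in vivo arrays were all above the Day 7 in vivo arrays, and Day 13 in vitro arrays all below the Day 7 in vitro arrays. The 2 origins did not overlap at either day, with in vitro below in vivo at Day 13 and, before any centring on ribosomal protein genes, above it at Day 7. At Day 13 the means were 4.89 ± 0.35 for in vitro and 6.14 ± 0.51 for in vivo pools, and at Day 7 they were 5.44 ± 0.13 for in vitro and 5.11 ± 0.017 for in vivo pools (SD, n = 3 each).

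In vivo, IGFBP7 differed by 1.03 ± 0.25 between Day 13 and Day 7 (log2 difference ± SE), a 2.04-fold higher signal with a 95% interval of 1.37 to 3.05. Its limma adjusted p of 0.0688 missed the threshold. In vitro, the difference between Day 13 and Day 7 was -0.56 ± 0.25, with a 95% interval of -1.13 to 0.019 and an adjusted p of 0.281. At Day 7, in vitro minus in vivo was 0.33, with an interval of -0.24 to 0.91 and an adjusted p of 0.844, and the sign turned (-0.037) under centring on ribosomal protein genes. At Day 13, in vitro minus in vivo was -1.26 ± 0.25 (95% interval -1.83 to -0.68), a signal 2.39-fold higher in the in vivo group, with an adjusted p of 0.0597. By p-value it stood 361st of 24016 in that comparison. The day effect in vitro minus that in vivo was -1.59 ± 0.36 (interval -2.40 to -0.78), with an adjusted p of 0.144, and stood 309th.

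A separation of this kind was not rare in each comparison taken alone. Groups did not overlap in 30.6% of the 10591 probe sets for Day 13 against Day 7 in vivo, in 44.4% in vitro, in 18.6% for the origins at Day 7 and in 29.8% for the origins at Day 13. IGFBP7 was 1 of the 4 member probe sets above background to separate in each. An opposite order of the days in the 2 origins, with no overlap in either, was found in 1.22% of them. Among these, 129 in number, 67 (0.633% of the 10591) also kept the origins apart at both days.

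**Figure D2:**
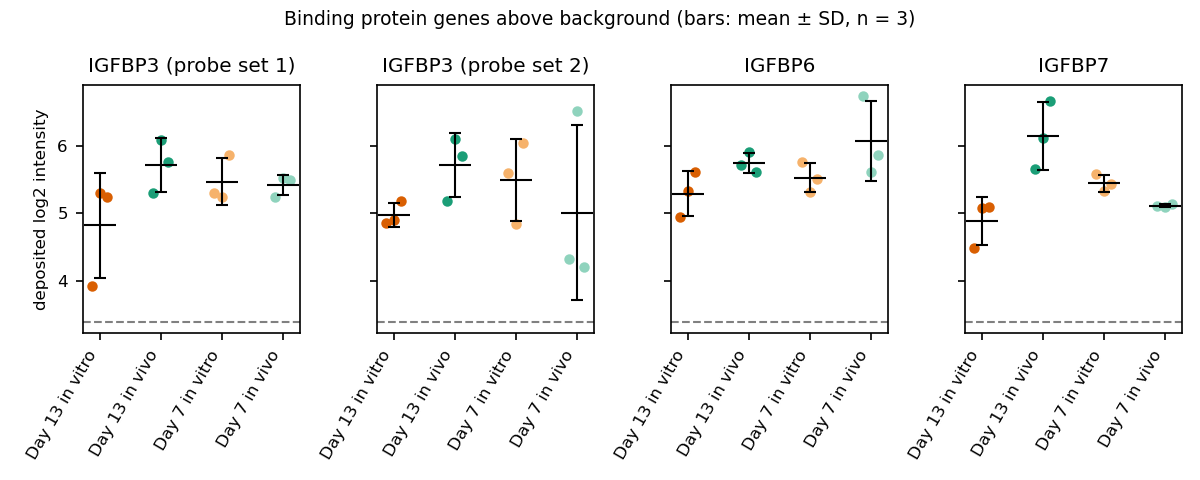
Deposited log2 intensity (y axis) of the 4 IGF binding protein probe sets above background in the 4 groups (x axis), with a point for each array, mean ± SD bars (n = 3) and a dashed line at background. IGFBP7 has its highest values, 5.65 to 6.67, in Day 13 in vivo and its lowest, 4.48 to 5.10, in Day 13 in vitro arrays, while the groups of IGFBP3 and IGFBP6 share values.

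Single arrays moved IGFBP7 across the threshold. Without Day 13 in vivo replicate 1, its lowest in that group, the adjusted p was 0.0249 for the days in vivo (1.28) and 0.0254 for the origins at Day 13 (-1.50). Without Day 13 in vitro replicate 3, the difference at Day 13 was -1.36 with an adjusted p of 0.0282. When only the 10591 probe sets above background were tested, the adjusted p was 0.0334 for the days in vivo and 0.0215 for the origins at Day 13. With both Day 13 in vitro arrays of low poly-A values left out, a choice made after seeing the data, the Day 13 difference was -1.05 with an adjusted p of 0.470. That setting leaves 1 Day 13 in vitro array, assumed to vary like the other groups. With the poly-A mean as a covariate it was -0.83 (adjusted p 1), and the difference of the days in vitro was -0.18. Centring on ribosomal protein genes gave 0.61 for the days in vivo. Across the 12 arrays the r of IGFBP7 with the poly-A mean was 0.55, and the part of these controls in its values was not otherwise tested. The mean of the hypoblast markers, 6 of 7 of which were above background, was 8.12 to 8.80 for in vitro and 9.62 to 10.2 for in vivo pools at Day 13. At Day 7 it was 8.30 to 8.59 for in vitro and 7.84 to 8.06 for in vivo pools. The Day 13 in vivo arrays were highest in this mean, as in IGFBP7, but its members differed. In vivo, 4 of the 7 were called higher at Day 13, where 2.70% of all genes were. GATA6 (12.22 against 13.60) and FN1 (13.49 against 14.13) had lower means than at Day 7. The Day 13 in vivo arrays were also highest in the mean of 3 epiblast markers, 6.75 to 7.81 against at most 6.72 on other arrays. Of these, CRIPTO was highest there (mean 11.32), and SOX2 stood at 2.36 on all Day 13 arrays. POU5F1 was lower there (7.69) than at Day 7 in vitro (10.78) or in vivo (9.33). The trophoblast marker mean was 10.17 to 11.03 for in vitro and 8.93 to 9.71 for in vivo pools at Day 13. The part of these lineages in the IGFBP7 values was not tested.

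**Figure D3:**
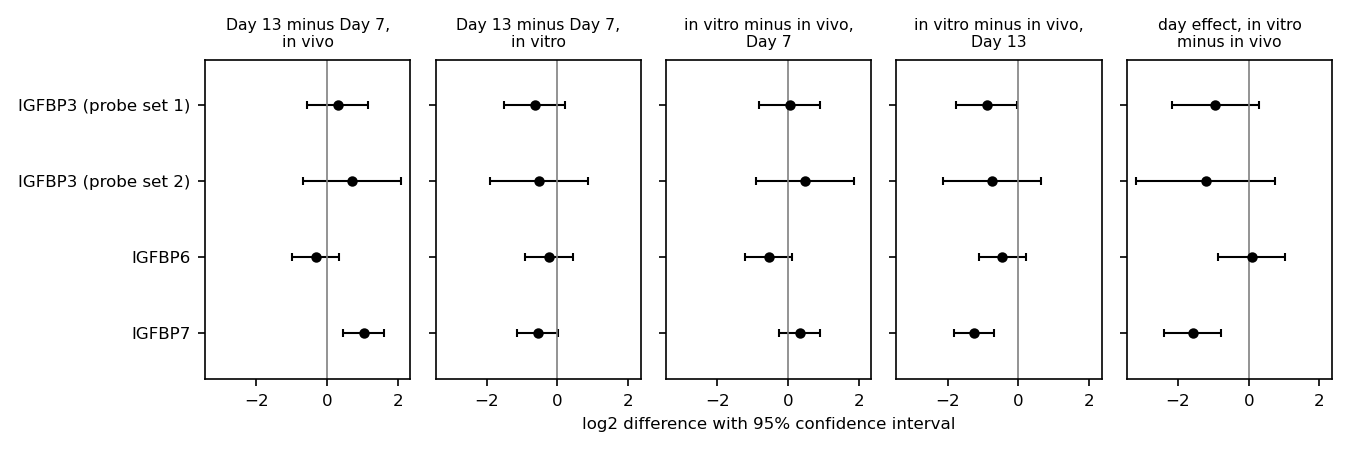
Log2 difference with its 95% confidence interval (x axis) for the 4 IGF binding protein probe sets above background (y axis) in the 5 comparisons, 1 per panel. The IGFBP7 intervals leave 0 outside in 3 panels, Day 13 minus Day 7 in vivo, in vitro minus in vivo at Day 13, and the day effect. That of IGFBP3 probe set 1 at Day 13 ends at -0.029.

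IGFBP3, the main carrier of IGFs in blood, where it forms a complex with the acid-labile subunit, was read by 2 probe sets. The first gave 3.93, 5.29 and 5.24 in Day 13 in vitro arrays and 5.29, 6.08 and 5.77 in Day 13 in vivo arrays. At Day 7 it gave 5.29, 5.25 and 5.87 for in vitro and 5.25, 5.52 and 5.49 for in vivo pools. Day 13 in vitro replicate 1 was the lowest of the 12, and the other groups overlapped. The means were 4.82 ± 0.77 for in vitro and 5.71 ± 0.40 for in vivo pools at Day 13, and 5.47 ± 0.34 for in vitro and 5.42 ± 0.15 for in vivo pools at Day 7 (SD, n = 3 each). In vitro minus in vivo at Day 13 was -0.89, with an interval of -1.76 to -0.029 and an adjusted p of 0.292. Without Day 13 in vitro replicate 1 it was -0.45, and with the poly-A covariate -0.016. The other differences were 0.29 for the days in vivo (adjusted p 0.875), -0.65 for the days in vitro (0.469) and 0.049 for the origins at Day 7 (1), with a day effect difference of -0.94 (0.616). Without Day 13 in vitro replicate 1 the days in vitro differed by -0.20.

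The second IGFBP3 probe set gave 4.85, 4.90 and 5.18 in Day 13 in vitro arrays and 5.18, 6.10 and 5.85 in Day 13 in vivo arrays. In Day 7 arrays it gave 5.59, 4.84 and 6.05 for in vitro and 4.32, 6.51 and 4.20 for in vivo pools. Day 7 in vivo replicate 2 was the highest and replicates 1 and 3 the lowest of all 12, so that group spans the whole range. Its differences were 0.70 for the days in vivo, -0.51 for the days in vitro, 0.48 and -0.73 for the origins at Day 7 and Day 13, and -1.22 for the day effect, with adjusted p-values of 0.634 and above. With 1 array left out these ran from 0.30 to 1.45 for the days in vivo, -0.84 to -0.24 for the days in vitro and 0.079 to 1.23 for the origins at Day 7. The 2 probe sets correlated at r = 0.49 (rho 0.65) over the 12 arrays, a description of arrays that share their groups and labelling. Their signs matched in all 5 comparisons, though quantile normalization turned that of the first at Day 7 (-0.12).

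IGFBP6, which prefers IGF2 as its ligand, was 4.94, 5.32 and 5.61 in Day 13 in vitro arrays and 5.71, 5.91 and 5.61 in Day 13 in vivo arrays. Its Day 7 values were 5.76, 5.32 and 5.51 in vitro and 6.74, 5.61 and 5.86 in vivo. At Day 13 the means were 5.29 ± 0.34 for in vitro and 5.74 ± 0.15 for in vivo pools, and at Day 7 they were 5.53 ± 0.22 and 6.07 ± 0.59 in the same order (SD, n = 3 each). The groups overlapped or met in every comparison, and the highest value belonged to Day 7 in vivo replicate 1. Differences were -0.33 and -0.24 for the days in vivo and in vitro, -0.54 and -0.45 for the origins at Day 7 and Day 13, and 0.088 for the day effect, with adjusted p-values of 0.549 and above. The r with the poly-A mean was 0.73 for IGFBP6, 0.73 for the first IGFBP3 probe set and 0.21 for the second.

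Identical deposited values recurred on different arrays. The first IGFBP3 probe set had 5.29 on 3 arrays of 3 groups, and IGFBP6 had 5.61 on 3 arrays of 3 groups. IGFBP7 and the second IGFBP3 probe set each had 1 value on 2 arrays of 2 groups, 5.10 and 5.18. For IGFBP3 and IGFBP6, the highest Day 13 in vitro array held exactly the value of the lowest Day 13 in vivo array. Such repeats were common at this brightness: 76.4% of the 3611 probe sets above background with a mean under 6 had 2 or more identical values, against 6.62% of 4244 with a mean of 8 or more.

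The rest of the pathway was read from 8 lists with 90 measured genes, 62 of them above background. Day 13 against Day 7 called 3 higher and 4 lower in vivo, 7.78% where 5.49% of all genes were called (2.70% higher and 2.80% lower). In vitro it called 9 higher and 7 lower, 17.8% where 10.8% were (5.00% higher and 5.77% lower). Among the 10591 of 24016 probe sets above background on at least 3 arrays, the shares were 8.23% in vivo and 16.6% in vitro, close to those of the lists. The lists hold mostly genes above background, so the share over all genes is not a like reference for them. At Day 7, in vitro against in vivo called 0 of 90 (0.295% of all genes), and at Day 13 it called 1, TIMP2, which was lower (1.64% of all genes, 0.786% lower). The day effect difference called 1, again TIMP2 (0.513% of all genes, 0.382% with a negative difference). Of the 25 calls, 10 to 21 held with any 1 array left out. With the poly-A mean as a covariate 4 of the 7 in vivo day calls held (TFRC, ITGB5, ADAM9 and BAD), 0 of the 16 in vitro day calls and neither TIMP2 call involving origin, though 11 of those 16 differences stayed within 1.5 times their value. Without Day 13 in vitro replicates 1 and 2, which leaves 1 array in that group, 2 calls held, and 14 of the 16 in vitro differences stayed within 1.5 times.

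Among ligands and receptors, IGF2R, which clears IGF2 from the cell surface, was 11.29 ± 0.16 for in vitro and 10.97 ± 0.47 for in vivo pools at Day 13, and 10.88 ± 0.63 for in vitro and 10.86 ± 0.22 for in vivo pools at Day 7, with no call. IGF2 held 3.86 on 9 of the 12 arrays, and IGFALS, the acid-labile subunit, held 6.44 on 8, recurring values above background, with no call. INSR, the insulin receptor, and GHR, the growth hormone receptor, were at background. In this list of 7 measured genes, 1 was called in vitro: GH1, growth hormone, higher by 1.34 (adjusted p 0.0145) on its brightest probe set. This rests on that probe set alone. Another, above background on 4 arrays, gave -0.069, and the remaining GH1 probe sets were at or below background on all 12 arrays.

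Of the proteases that cut binding proteins and their inhibitors, 17 were measured. In vivo 2 were called higher at Day 13, the membrane protease ADAM9 and the gelatinase MMP2, where 2.70% of all genes were. ADAM9 rose by 2.61 (adjusted p 0.0169), with 0.066 and 0.076 on dimmer probe sets. MMP2 rose (0.0384) from background at Day 7 to 3.44, 4.95 and 3.51 in Day 13 in vivo arrays. The mean of these, 3.97, was 1.49-fold above background, though replicates 1 and 3 lay close to background. In vitro, ADAM9 rose and the metalloproteinase inhibitors TIMP1 and TIMP2 fell. TIMP2 was 5.36, 5.25 and 6.01 in Day 13 in vitro arrays and 8.95, 10.37 and 8.77 in Day 13 in vivo arrays. At Day 7 it was 10.82, 10.35 and 11.18 for in vitro and 9.45, 8.96 and 10.35 for in vivo pools. All Day 13 in vitro arrays lay below every other array. TIMP2 fell by 5.24 on the log2 scale between the days in vitro (adjusted p 0.0007), differed by -3.82 between the origins at Day 13 (0.0128), and its day effect differed by -5.02 (0.0324). A dimmer TIMP2 probe set gave -0.31 for the days in vitro and, for the Day 13 origins, -1.01, neither called. TIMP1 gave -4.79 (0.0157) and, on its other probe set, -3.87. PAPPA, the IGFBP4 protease, was at background.

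Of 4 measured proteins related to the binding proteins, 3 were called higher in vitro and 0 in vivo by their brightest probe sets. Over all genes, 5.00% were called higher in vitro and 2.70% in vivo. CCN1 and CCN2, matricellular proteins with an IGFBP-like domain, rose by 4.92 (adjusted p 0.00638) and 2.97 (0.0359), and CRIM1 by 1.81 (0.0439). On that probe set CRIM1 was also higher in vivo, by 1.33 with no overlap of the days, but was not called (0.192). Its other probe sets above background were higher at Day 13 in both origins and differed in which were called. Another was called in vitro (2.33, 0.0233) but not in vivo (1.44, 0.197). A further one was called in vivo (2.33, 0.0247) but not in vitro (1.37, 0.121). The median difference of the 4 between the days was 2.39 in vitro and 0.68 in vivo, against 0 over all genes in each. Among 13 cell surface partners, 1 was called higher and 1 lower in vivo, and 1 higher and 2 lower in vitro. Over all genes, 5.49% were called in vivo and 10.8% in vitro. The transferrin receptor TFRC fell in both origins, by 3.03 in vivo (0.00887) and 2.52 in vitro (0.0135). The nuclear receptor RXRA rose in vitro by 1.60 (0.0135), and the integrin ITGB3 fell in vitro by 2.64 (0.0233). RXRA was 3.73, 2.79 and 3.68 in Day 7 in vitro arrays, and every Day 13 in vivo array also held 3.73. Its rise thus began near or below background, and its size is uncertain. The integrin ITGB5 rose in vivo by 0.22 (0.0436), a value that ran from -0.21 to 0.25 over the alternatives and changed sign in 2.

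**Figure D4:**
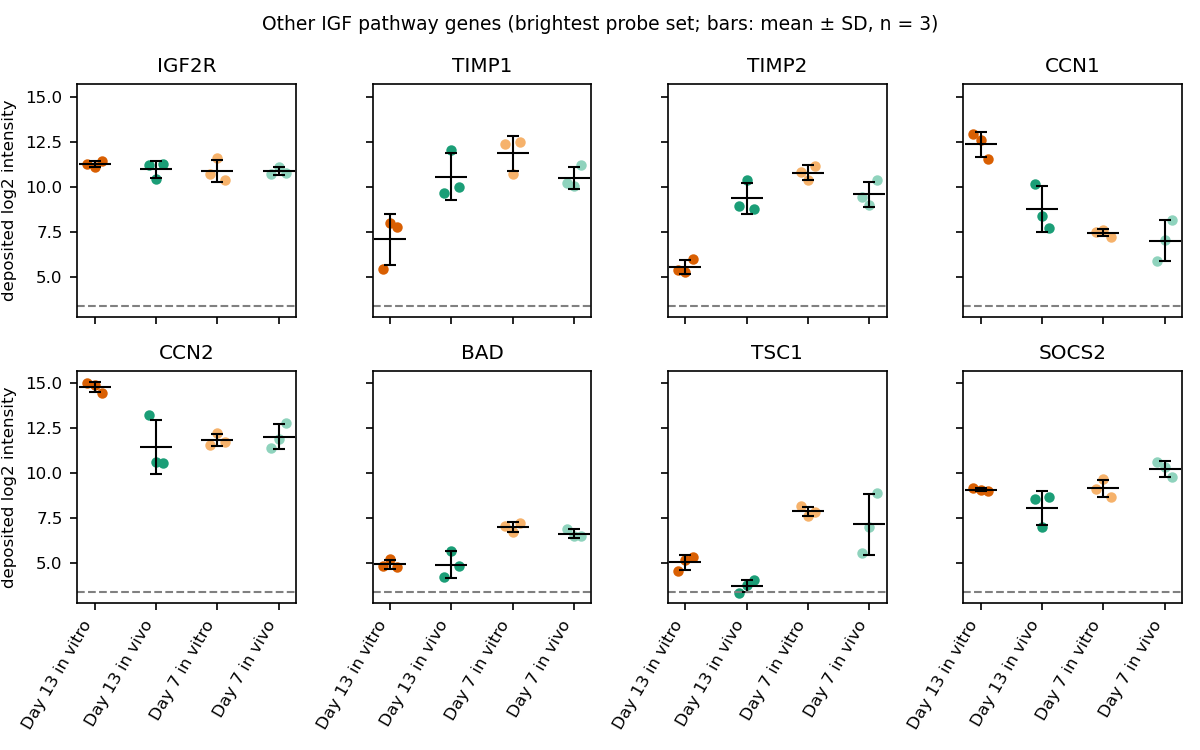
Deposited log2 intensity (y axis) of 8 other IGF pathway genes by group (x axis), with a point per array, mean ± SD bars (n = 3) and a dashed background line. TIMP2 lies at 5.25 to 6.01 in Day 13 in vitro arrays and at 8.77 or above in all others, while IGF2R is between 10.36 and 11.58 throughout.

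Downstream of the receptor, 23 genes of the PI3K, AKT and mTOR branch gave 2 lower in vivo and 3 lower and 1 higher in vitro. Over all genes, 2.80% were called lower in vivo, and 5.77% lower and 5.00% higher in vitro. The counts per branch were not tested against these shares. The apoptosis promoter BAD fell by 1.71 in vivo (adjusted p 0.0290) and 2.07 in vitro (0.00881). TSC1, an inhibitor of mTOR, fell by 3.43 in vivo (0.0355) and 2.84 in vitro (0.0488). Its Day 13 in vivo arrays were 3.36, 3.76 and 4.06, below or close to background, so the size of the fall in vivo is uncertain. The S6 kinase RPS6KB2 fell by 2.08 in vitro (0.00962), where Day 13 replicate 2 lay below background at 3.09. The translation factor EIF4E rose by 1.61 in vitro (0.0204). Among 11 receptor substrates and adaptors, the cytokine and growth hormone inhibitor SOCS2 fell in vivo by 2.15 (0.0396). Of 13 RAS and MAPK genes, 2 were called higher in vitro, where 5.00% of all genes were. These were NRAS, by 1.38 (0.00335), and the immediate early gene EGR1, by 4.42 (0.0201). The IGF2 mRNA-binding proteins gave 0 calls of 2 measured.

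The calls differed in how they stood up to leaving out 1 array. NRAS, CCN1, RXRA, RPS6KB2, TIMP2 and BAD in vitro, and TFRC in vivo, were called without any 1 of the 12. Each of the in vitro ones was lost with the poly-A covariate (adjusted p 0.0537 to 0.508). TFRC in vivo was lost with the GAPDH 3′ minus 5′ covariate and when only the arrays compared were fitted (up to 0.118). Fitting only the arrays compared kept 7 of the 24 calls between 2 groups. Leaving out Day 7 in vitro replicate 1 ended the call of TFRC in vitro (adjusted p 0.0574). The TIMP2 call between the origins at Day 13 was lost without either Day 13 in vitro replicate 1 or 2 (up to 0.0575), and its day effect without replicate 1 or 2 of Day 13 in vitro, 1 or 3 of Day 7 in vitro or 1 or 2 of Day 7 in vivo (up to 0.0937). TIMP1 was lost without either Day 7 in vitro replicate 1 or 3 (up to 0.0661). EGR1 (up to 0.0821) and GH1 (up to 0.0608) were lost when an in vitro array was left out, Day 13 replicate 1, Day 13 replicate 2 or Day 7 replicate 3. ADAM9 in vitro (up to 0.0755) and EIF4E (up to 0.0811) were lost without any of the in vitro arrays Day 13 replicate 1, Day 13 replicate 2, Day 7 replicate 1 and Day 7 replicate 3. ADAM9 in vivo was lost without replicate 1 or 3 of either in vivo group (up to 0.0621), and ITGB3 without 5 of the 6 in vitro arrays, all but Day 13 replicate 3 (up to 0.0867). CCN2 and BAD in vivo were lost without 7 arrays, MMP2 and ITGB5 without 9, and SOCS2, CRIM1 and TSC1 in each origin without 10, with adjusted p-values of at most 0.172.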

How the data were processed

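The authors' deposited table holds log2 probe set intensities of 12 Affymetrix bovine arrays, normalized between arrays. Per the submitters' processing notes RMA, GCRMA and limma were used, with no versions and no statement of which made the deposited values. From the log2 values as deposited, 4 group means were fitted to 24016 probe sets (112 control probe sets left out) with limma 3.58.1 (lmFit, eBayes without trend) in R 4.3.3. The 5 contrasts were two-sided, with a threshold of 0.05 on the p adjusted after Benjamini-Hochberg. Errors of differences are SE from this fit.

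Background, 3.39, is the 99th percentile of 48 negative control probe sets, chosen after the data were seen. Genes were named from the platform annotation: 13292 tested probe sets had 1 symbol, 86 several and 10638 none. A gene's level is that of its probe set with the highest mean. Each member is named. Of the pathway lists, the 2 called genes with the smallest adjusted p per list and contrast are named, plus IGF2, IGF2R and INSR. IGFALS, GHR, PAPPA, CRIM1, ITGB3 and EIF4E, and ADAM9 and TSC1 in vitro, were named after their values were seen. No member was called, so the genes most alike are not listed. The members and lists were chosen with earlier results of these data known.

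Around their group means, 3 of 18 array pairs with the same number correlated above 0.1 (median r -0.064), so replicate numbers were not used as pairs. The fit was tested on simulated data for the days in vivo, with 50 probe sets per size of change. It called 12% of log2 changes of 1, 40% of 2, 84% of 4 and 36% of -2. Most changes of 1 were thus missed, so the absence of a call does not show that a member was unchanged. Alternatives were 2 other scalings, an intensity trend, a filter on dim probe sets, fewer arrays in the fit, a replicate block, 2 covariates and leaving out arrays. Batches are not given in the sources used here.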

Additional observations from a re-analysis of the deposited data

Results flagged for a closer look

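The arrays of IGFBP7 lay in opposite orders in the 2 origins: every Day 13 array lay below every Day 7 array in vitro and above every Day 7 array in vivo. Such an order was found in 129 (1.22%) of the 10591 probe sets above background on at least 3 arrays. The difference of the days in vitro was -0.56, with a 95% interval of -1.13 to 0.019 and a limma adjusted p of 0.281. With the poly-A covariate it was -0.18. The day effect in vitro minus that in vivo, a contrast of group means of 3 arrays each, was -1.59 on the log2 scale (SE 0.36). In limma this difference had an adjusted p of 0.144 and missed the threshold. It ranged from -1.83 to -1.10 over its 20 alternatives, with adjusted p-values of 0.0545 to 0.844.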

How the results depend on the processing

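The count of member probe sets called, 0 in each of the 5 comparisons, was 1 for the days in vivo and 1 for the origins at Day 13 when only probe sets above background were tested. With 1 array left out it ran from 0 to 1 for the days in vivo, the origins at Day 13 and the day effect difference, and was 0 throughout for the other 2. With replicate number as a replicate block it was 0 in all 5, and the block changed no call of a member. Of the 25 calls of other pathway genes, 12 held with the block. Over 416 pairs of an alternative and a difference of the 4 member probe sets above background, 397 kept direction and side of the threshold, 14 changed sign and 5, all of IGFBP7, passed the threshold. IGFBP4, below background, passed it in 3 comparisons without Day 7 in vivo replicate 1.

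Sign changes were these, and the cause was not tested. The first IGFBP3 probe set gave -0.12 (quantile), -0.32 (ribosomal centring), -0.15 (without Day 7 in vitro replicate 3) and -0.038 (without Day 7 in vivo replicate 1) for the origins at Day 7, -0.13 (ribosomal centring) for the days in vivo and 0.13 (poly-A covariate) for the days in vitro. IGFBP7 gave -0.037 (ribosomal centring) for the origins at Day 7. IGFBP6 gave 0.48 (poly-A covariate) and 0.079 (Day 13 in vitro replicates 1 and 2 left out) for the days in vitro, 0.36 (poly-A covariate) for the origins at Day 13, 0.0088 (without Day 7 in vivo replicate 1) for the days in vivo, and for the day effect difference -0.071 (without Day 13 in vitro replicate 3), -0.017 (without Day 7 in vitro replicate 2) and -0.25 (without Day 7 in vivo replicate 1). With 1 array left out, IGFBP6 ran from -0.56 to 0.0088 for the days in vivo and from -0.25 to 0.32 for the day effect difference, and the first IGFBP3 probe set from -0.15 to 0.16 for the origins at Day 7. Ribosomal centring moved the median of all probe sets above background by -0.42 in the days in vivo and by -0.37 in the origins at Day 7.

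Calls over all probe sets ran from 241 to 1571 for the days in vivo (911 as reported), 197 to 2898 for the days in vitro (1804), 3 to 116 for the origins at Day 7 (50), 0 to 2058 for the origins at Day 13 (288) and 11 to 1083 for the day effect difference (96). The lowest counts came from fitting only the arrays compared or from the poly-A covariate. Values below 3.39 bound only the signal of a probe set, from above.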
